A study of Mus musculus with 6 samples.

Results

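The transcriptomes of 2 macrophage cultures, treated with IL4 and PF429424 or with IL4 and 1,10-Phen, were set directly against each other, without the culture that received IL4 alone as a reference. These are 2 of the 6 samples of the study, and 11898 of 16775 genes were compared, those that reached a CPM of 1 in any of the 6 libraries (CPM is a count scaled to a common library size). The cells were macrophages derived from C57BL/6 bone marrow by 5 days of culture in M-CSF (10 ng/ml), the growth factor of this lineage, and exposure to IL4 and a compound lasted 24 hours. Besides PF429424 and 1,10-Phen, the other 4 libraries came from cells given IL4 with fatostatin, IL4 with betulin, IL4 with 25-HC, and IL4 alone. All 6 cultures received IL4, so none shows these cells without it, and the labels give neither the doses nor the targets of the compounds, do not expand 1,10-Phen, and do not say how many animals or cultures stand behind a library. The title of the study names the transcription factor SREBP2 and alternative macrophage activation. The direct comparison asks which genes differ between cells exposed to these 2 compounds, and beside each difference the other 4 libraries show in which of the 2 the level stood apart.

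IL4 drives macrophages into the alternative activation state, with arginase, chitinase-like and resistin-like proteins among its products. Several stress programmes can run on top of it. Hypoxia-inducible factor (HIF) is destroyed in cells with ample oxygen, because prolyl hydroxylases, enzymes that need oxygen and iron, mark its alpha subunits for degradation; once it escapes them it switches on glucose uptake, glycolysis and its own hydroxylases. NRF2 switches on glutathione synthesis and haem breakdown when its inhibitor KEAP1 is modified by oxidants, and ATF4 switches on amino acid synthesis and uptake when translation initiation is restrained. Macrophages grown in M-CSF also divide, under E2F factors that switch on DNA replication genes.

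Letters of 8 promoters are shown because their genes carry the main differences described below, or the lack of a difference. They are the stretches of the 250 bases before the annotated start that lie outside annotated exons, in gene orientation, from RefSeq (GRCm38.p6), with motif matches on either strand in capitals. The genes shown were picked, with their values known, from those whose stretch held a match, so the match itself is not a finding. In the first 4, the capitals mark ACGTG or GCGTG, the core of the HIF binding site, and overlapping matches merge.
Egln3, chr12:54203875-54204124, minus strand: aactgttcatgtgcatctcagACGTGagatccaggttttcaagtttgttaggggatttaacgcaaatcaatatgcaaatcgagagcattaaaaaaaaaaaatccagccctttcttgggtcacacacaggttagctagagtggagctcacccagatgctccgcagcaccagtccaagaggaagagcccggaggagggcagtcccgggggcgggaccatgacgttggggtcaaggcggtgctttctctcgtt
Bnip3, chr7:138909520-138909756, minus strand: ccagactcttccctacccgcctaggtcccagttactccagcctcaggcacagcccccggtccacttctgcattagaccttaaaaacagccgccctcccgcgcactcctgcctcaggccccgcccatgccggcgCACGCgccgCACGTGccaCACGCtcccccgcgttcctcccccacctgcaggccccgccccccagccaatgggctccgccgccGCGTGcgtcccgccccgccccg
Ero1l, chr14:45318573-45318702, minus strand: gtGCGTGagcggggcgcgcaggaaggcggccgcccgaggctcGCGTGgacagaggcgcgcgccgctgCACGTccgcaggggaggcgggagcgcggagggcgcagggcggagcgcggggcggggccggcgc
P4ha2, chr11:54100674-54100923, plus strand: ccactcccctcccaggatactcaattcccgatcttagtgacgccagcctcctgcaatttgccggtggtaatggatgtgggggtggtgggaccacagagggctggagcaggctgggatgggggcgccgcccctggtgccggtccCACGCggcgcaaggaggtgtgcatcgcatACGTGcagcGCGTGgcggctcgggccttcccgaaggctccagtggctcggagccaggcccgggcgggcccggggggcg
Matches of ACGTG or GCGTG occurred in 78.0% of the 41 promoters of measured HIF targets, in 55.3% of the promoters of all genes compared and in 38.6% of the 32851 promoters of the table. The window of Vldlr, another HIF target with a large difference, held none of these letters. In Gclm the capitals mark TGACNNNGC, the core of the antioxidant response element bound by NRF2.
Gclm, chr3:122245307-122245486, plus strand: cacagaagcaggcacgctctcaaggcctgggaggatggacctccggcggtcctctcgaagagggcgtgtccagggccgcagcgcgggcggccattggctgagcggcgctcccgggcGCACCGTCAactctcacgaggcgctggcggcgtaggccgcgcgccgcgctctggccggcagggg
That motif stood in 29.6% of 27 promoters of the NRF2 and glutathione list, in 11.8% of promoters of the genes compared and in 10.2% of all promoters. In Slc7a11 and Chac1 the capitals mark TGATGNAA, a pattern of the composite site bound by ATF4 with a C/EBP partner.
Slc7a11, chr3:50443615-50443863, minus strand: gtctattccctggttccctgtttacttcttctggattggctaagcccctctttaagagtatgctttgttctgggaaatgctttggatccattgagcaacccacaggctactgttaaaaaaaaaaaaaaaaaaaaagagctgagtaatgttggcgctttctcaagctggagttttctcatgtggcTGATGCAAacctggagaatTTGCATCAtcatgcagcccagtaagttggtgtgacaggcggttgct
Chac1, chr2:119350992-119351228, plus strand: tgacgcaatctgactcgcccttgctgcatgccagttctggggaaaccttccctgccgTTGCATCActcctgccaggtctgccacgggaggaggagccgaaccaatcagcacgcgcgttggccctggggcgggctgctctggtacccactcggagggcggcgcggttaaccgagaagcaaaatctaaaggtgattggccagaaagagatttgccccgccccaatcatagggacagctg
It was found in 18.8% of 32 promoters of ATF4 targets, against 2.12% of promoters of the genes compared and 3.45% of all promoters. The Slc7a11 stretch lies inside the annotated gene, before an inner start. In Mcm5, of the replicative helicase, the capitals mark TTCCCGC or TTGGCGC, patterns of the E2F site.
Mcm5, chr8:75109259-75109467, plus strand: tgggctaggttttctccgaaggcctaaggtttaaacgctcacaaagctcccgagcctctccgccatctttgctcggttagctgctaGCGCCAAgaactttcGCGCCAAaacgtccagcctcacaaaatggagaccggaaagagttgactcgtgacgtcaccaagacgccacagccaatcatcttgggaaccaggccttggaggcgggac
These letters occurred in 28.9% of 38 promoters of DNA replication genes, in 9.70% of those of the genes compared and in 5.62% of all promoters. A match is a description of the letters and not evidence of binding.

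The 6 libraries held 20181396 to 21169667 rounded estimated counts, 21010378 of them with PF429424 and 20742358 with 1,10-Phen. Levels are given as CPM scaled with TMM factors, which correct for differences in RNA composition and were 0.9668 for PF429424 and 0.9001 for 1,10-Phen, against 1.017 to 1.064 for the others. A difference is the log2 ratio of PF429424 over 1,10-Phen, positive where the PF429424 library was higher. With 1 library per treatment there is no replicate check and no test, so each value compares 2 libraries and not 2 conditions. The ranges in brackets, exact 95% intervals of the count ratio, take in counting error alone. The words higher and lower are kept for genes called, which differed by at least 2-fold with an interval that excluded no change.

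The libraries differed widely. Of the 11898 genes, 2043 (17.2%) were called, 1135 higher (9.54%) and 908 lower (7.63%) with PF429424, and the median difference over all genes was 0.04 on the log2 scale. On the deposited FPKM values, as log2(FPKM + 1), 795 were higher and 408 lower at 2-fold, so that 66.1% of the called genes were higher there, against 55.6% on the counts. At 4-fold, 295 genes were higher and 266 lower; at 16-fold, 36 and 34. Across genes the rank correlation between the 2 libraries was 0.944, while PF429424 correlated with the other 4 libraries at 0.974 to 0.988 and 1,10-Phen with them at 0.926 to 0.943. In most called genes that could be placed, the 1,10-Phen library was the one apart. PF429424 alone lay at least 2-fold outside the range of the other 4 libraries in 14 of the 1135 higher genes and 15 of the 908 lower genes, whereas 1,10-Phen alone did so in 620 and 415. In 495 and 470 called genes neither library lay that far out. Over all 11898 genes, called or not, PF429424 lay that far above the other 4 in 23 and below them in 57. For 1,10-Phen these numbers were 458 and 713. Both libraries are set against the same 4 others here, so these counts describe position and test nothing.

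**Figure D1:**
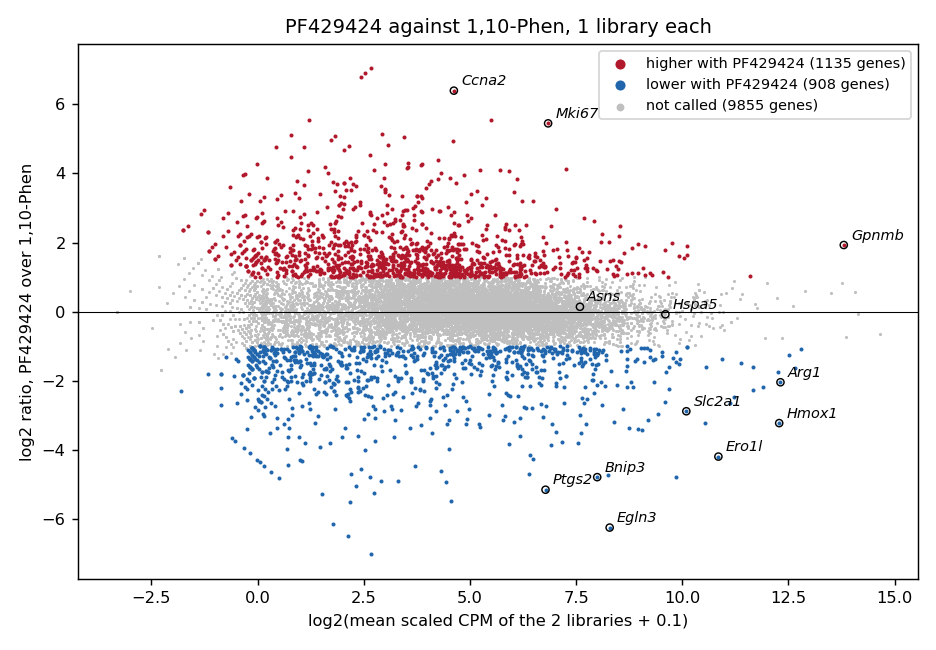
Difference of each gene between PF429424 and 1,10-Phen (log2 ratio, vertical axis) against its mean level in the 2 libraries (log2 of scaled CPM plus 0.1, horizontal axis), 1 library each, with called genes in colour. Called genes occur at all levels: 1135 lie above the grey band and 908 below it, with Egln3 at -6.25 and Ccna2 at 6.39, while Asns and Hspa5 lie near 0.

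Hypoxia targets had the lowest median of the 42 gene lists with at least 3 measured members. Of 34 HIF targets, which were listed and measured in full, 29 were lower and none higher with PF429424, and their median difference was -2.63 against 0.04 over all genes; the 5 not called were Pfkfb4, Higd1a, Bnip3l, Car9 and Bhlhe40. The PF429424 library lay at least 2-fold above all 4 other libraries in 1 of the 34, Egln3, and the 1,10-Phen library in 28. Over all 11898 genes they did so in 23 and 458. Stc2 (0 counts with PF429424 and 33 with 1,10-Phen) and Car12 (4 and 31), both lower, passed the filter only through the 1,10-Phen library. In bulk RNA of this kind, a change in all cells cannot be told from a larger change in some of them.

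The oxygen sensors come first by role. Egln3, a prolyl hydroxylase that is itself a HIF target, was at 8.02 CPM with PF429424 and 618 CPM with 1,10-Phen, against 1.16 with IL4 alone, 1.60 with fatostatin, 1.83 with betulin and 1.96 with 25-HC. Its difference of -6.25 (-6.50 to -6.04) was the lowest of the genes named here, and the PF429424 value was itself more than 4-fold above the other 4 levels. Egln1, the main hydroxylase of HIF alpha subunits, was at 63.6 CPM with PF429424 and 371 CPM with 1,10-Phen, against 48.6 to 58.5 CPM in the others (difference -2.54). Hif1a, the regulated subunit, ran the other way: 119.6 CPM with PF429424 and 62.2 CPM with 1,10-Phen, against 127 to 150.02 CPM in the other 4 (0.94, just under the 2-fold limit). Vhl, the ubiquitin ligase subunit that removes hydroxylated HIF, had a difference of -0.79 and Hif1an, an asparaginyl hydroxylase, one of -0.29. Of the 9 measured genes of the HIF system, 3 were lower (33.3%, against 7.63% of all genes) and none higher. Egln1 and Egln3, among the lower ones, also count among the HIF targets above. Arnt2, the other lower gene (8 counts with PF429424 and 32 with 1,10-Phen), passed the filter only through the 1,10-Phen library.

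Among effectors, Bnip3, a mitophagy receptor, stood at 17.7 CPM with PF429424 and 493 CPM with 1,10-Phen, against 15.9 to 17.6 CPM in the other 4. Only the 1,10-Phen library was apart, and the difference was -4.79 (-4.95 to -4.64). Ero1l, the oxidase that feeds disulfide formation in the endoplasmic reticulum (ER), was at 191 CPM with PF429424 and 3500.0 CPM with 1,10-Phen, against 101 to 127 CPM (-4.19). PF429424 was thus also above the other 4 for this gene, by less than 2-fold. Vldlr, a lipoprotein receptor, differed by -4.46, Ndrg1 by -3.80, and Ak4, a mitochondrial adenylate kinase, by -3.76. Mxi1, a MYC antagonist, was at 42.5 CPM with PF429424 and 341 CPM with 1,10-Phen, against 52.1 to 54.7 CPM. Pdk1, the kinase that closes pyruvate dehydrogenase, differed by -2.06 and Vegfa, the angiogenic growth factor, by -2.18. Among the exceptions was Car9, a carbonic anhydrase often used as a hypoxia marker, at 7.34 CPM with PF429424 and 6.16 CPM with 1,10-Phen (0.25, -0.11 to 0.62).

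Glycolysis went with the hypoxia targets, with which the list shares Slc2a1, Hk2, Pgk1 and Ldha. Of 22 genes, 17 were lower and 1 higher with PF429424, and the median was -1.61. Slc2a1, the glucose transporter, was at 261 CPM with PF429424 and 1926 CPM with 1,10-Phen, against 155 CPM with IL4 alone, 173 with fatostatin, 217 with betulin and 279 with 25-HC (-2.88). Slc16a3, the lactate exporter, was at 87.0 CPM with PF429424 and 914 CPM with 1,10-Phen, against 61.8 to 99.6 CPM in the other 4 (-3.39). PF429424 fell inside the range of the other 4 for both transporters. Step by step down the pathway, Hk2 differed by -1.38, Gpi1 by -2.46, Pfkl by -2.36, Aldoa by -1.60, Tpi1 by -1.76, Gapdh by -1.62, Pgk1 by -2.63, Pgam1 by -1.37, Eno1 by -2.26, Pkm by -1.74 and Ldha by -1.48. The 1 higher gene was Eno2, the neuronal enolase, at 10.4 CPM with PF429424 and 4.07 CPM with 1,10-Phen (1.34), and the myeloid hexokinase Hk3 was not called (0.26). Gapdh has many pseudogene copies, so its estimated count is uncertain.

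**Figure D2:**
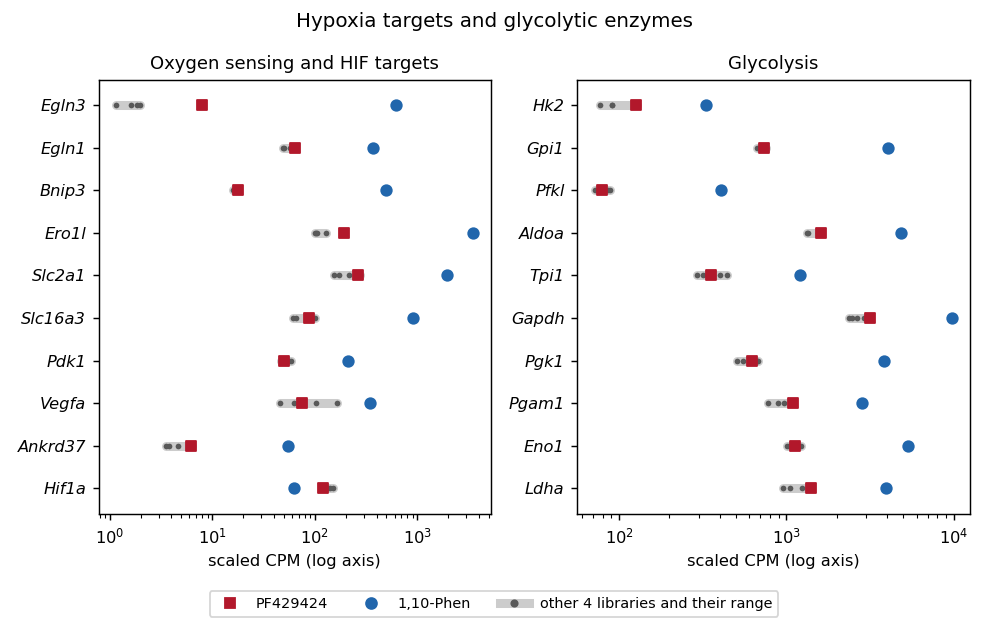
Scaled CPM (horizontal log axis) of genes of oxygen sensing and HIF targets (left) and of glycolysis (right) in the PF429424 library (squares), the 1,10-Phen library (large circles) and the other 4 libraries (small points, joined by their range). In every row but Hif1a the 1,10-Phen circle lies to the right of all others, with Slc2a1 at 1926 CPM against 261 CPM for PF429424, and the squares lie in or near the range of the other 4 except for Egln3 and Ero1l.

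Mitochondrial genes were placed the other way by small amounts. The 21 genes of the citric acid cycle had a median of 0.46. Of these, 3 were higher (14.3%, against 9.54% of all genes), Idh2 (1.31), Idh3a (1.16) and Fh1 (1.07), and none lower. The 75 nuclear genes of the respiratory chain had a median of 0.38, with 70 above 0, but only Ndufs8 (1.10) and Ndufa12 (1.08) were called, 2.67% of the list against 9.54% of all genes. Mitochondrial ribosomal proteins lay at 0.46 in the median with 1 of 75 called. Nearly all members of these lists stayed under 2-fold.

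Some other enzymes of the family to which the HIF hydroxylases belong were lower as well, and most were not called. Of 18 measured lysine demethylases and TET enzymes, 6 were lower (33.3%, against 7.63% of all genes) and none higher with PF429424 (median -0.49). Kdm3a, a histone H3 demethylase and HIF target, was at 59.7 CPM with PF429424 and 337 CPM with 1,10-Phen, against 54.4 to 81.5 CPM (-2.50). Kdm5b followed at -1.95, Jmjd6 at -1.83 and Kdm4b at -1.60, while Tet2 (-0.01) and Tet3 (-0.19) were not called. Among 8 measured collagen hydroxylases, 4 were lower (50%). P4ha2, a collagen prolyl hydroxylase subunit, was at 8.86 CPM with PF429424 and 160.3 CPM with 1,10-Phen, against 4.8 to 10.97 CPM (-4.16), and P4ha1 and Plod2 differed by -2.63 and -3.08. Kdm3a, Kdm4b, P4ha1, P4ha2, Plod1 and Plod2 also count among the HIF targets above.

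Genes of oxidant defence were lower with PF429424 in 16 of 24 cases and higher in none, with a median of -1.39. In 13 of the 24, the 1,10-Phen library lay at least 2-fold above all 4 others, against 458 of all 11898 genes. Both subunits of the enzyme that starts glutathione synthesis took part. The modifier subunit Gclm was at 119 CPM with PF429424 and 1055 CPM with 1,10-Phen, against 149 CPM with IL4 alone, 89.1 with fatostatin, 119 with betulin and 119 with 25-HC (-3.15, -3.21 to -3.09). For the catalytic subunit Gclc the difference was -2.82. The sulfiredoxin Srxn1 (-2.17), the export pumps Abcc4 (-2.73) and Abcc1 (-2.04) and thioredoxin reductase Txnrd1 (-1.59) were lower too. The mRNA of the regulator, Nfe2l2, differed by 0.20 and that of Keap1 by -0.62. Outside the list, the glutathione transferases Gsta3 and Gsta4 were among the 12 lowest ratios. Gsta3 was at 1.28 CPM with PF429424 and 41.7 CPM with 1,10-Phen (-4.92). Gsta4 passed the filter only through the 1,10-Phen library. Genes of this family resemble each other, so their split of reads is uncertain.

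Iron genes gave both directions, with 3 higher (16.7%, against 9.54% of all genes) and 5 lower (27.8%, against 7.63%) of 18 (median -0.13). Hmox1, haem oxygenase, which frees iron from haem, was at 961 CPM with PF429424 and 8995 CPM with 1,10-Phen, against 837 CPM with IL4 alone, 1204 with fatostatin, 1327 with betulin and 1122 with 25-HC (-3.23). Slc40a1, ferroportin, the iron exporter, was at 31.4 CPM with PF429424 and 361 CPM with 1,10-Phen, against 181 CPM with IL4 alone, 91.2 with fatostatin, 77.3 with betulin and 46.3 with 25-HC. Here the 2 libraries lay on opposite sides of the others, PF429424 below all 4 and 1,10-Phen above all 4, and the difference was -3.52 (-3.65 to -3.41). The importer Slc11a2 was higher (1.28), as was the ferrireductase Steap3 (1.12), and the transferrin receptor Tfrc was not called (0.41, with 261 CPM and 197 CPM inside a range of 116 to 729 CPM). The ferritin genes Fth1 (-0.73) and Ftl1 (-0.64) stayed under 2-fold, and both have pseudogene copies.

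Of 18 metallothionein and zinc transporter genes, 3 were lower (16.7%, against 7.63% of all genes) and none higher. Mt2, a metal-binding metallothionein, was at 6.10 CPM with PF429424 and 161 CPM with 1,10-Phen, against 1.96 CPM with IL4 alone, 8.80 with fatostatin, 162 with betulin and 1.82 with 25-HC (-4.70). The 1,10-Phen level was therefore matched by betulin and not particular to that library. Mt1 (-2.71) and the zinc exporter Slc30a1 (-1.69) were also high in both of these libraries, with betulin at 483 CPM for Mt1 against 479 CPM with 1,10-Phen.

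Cell-cycle genes had the highest medians of the lists. Of 36 genes of mitosis and G2/M, 35 were higher with PF429424 and none lower, at a median of 2.55; of 42 genes of DNA replication, 33 were higher and none lower, at a median of 2.03. The PF429424 library lay at least 2-fold below all 4 other libraries in none of these genes, and the 1,10-Phen library in 35 and 31 of them. Over all 11898 genes, PF429424 did so in 57 and 1,10-Phen in 713. For most of the genes given here PF429424 was nevertheless at or below the lower end of the other 4.

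Mki67, the proliferation antigen, was at 224 CPM with PF429424 and 5.03 CPM with 1,10-Phen, against 571 CPM with IL4 alone, 379 with fatostatin, 451 with betulin and 323 with 25-HC (5.45, 5.18 to 5.79). Ccna2, cyclin A, was at 48.5 CPM with PF429424 and 0.482 CPM with 1,10-Phen, against 58.1 to 117 CPM (6.39, 5.72 to 7.79). For both genes PF429424 was the second lowest library and 1,10-Phen the lowest. Pbk, a mitotic kinase, had 231 counts with PF429424 and none with 1,10-Phen, at least 70.8-fold higher with 3 counts as the floor for the empty library; the other 4 held 261 to 406 counts. Ccnb2, cyclin B, differed by 4.82, the kinetochore protein Cenpf by 5.06, topoisomerase Top2a by 4.08 and the kinase Cdk1 by 2.91. Cdca8, of the chromosomal passenger complex, was the member not called, at 26.0 CPM with PF429424 and 20.5 CPM with 1,10-Phen, both below the 36.6 to 50.4 CPM of the others.

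In replication, the licensing factor Cdc6 was at 14.7 CPM with PF429424 and 0.321 CPM with 1,10-Phen, against 14.8 to 20.7 CPM (5.15, 4.38 to 6.98). The ribonucleotide reductase subunit Rrm2 differed by 4.93, polymerase epsilon (Pole) by 4.31, and the helicase subunits Mcm5 by 4.09 and Mcm2 by 3.97. Mcm5 was at 70.6 CPM with PF429424 and 4.07 CPM with 1,10-Phen, against 116 CPM with IL4 alone, 97.4 with fatostatin, 111 with betulin and 83.9 with 25-HC. The list was not uniform: Pcna, the sliding clamp, was at 317 CPM with PF429424 and 309.5 CPM with 1,10-Phen (0.04), the thymidylate synthase Tyms differed by 0.57, and the transcription factor E2f1 by -0.14. E2f7, a repressor of the same family, was among the 12 highest ratios (5.07), as were the glycosylase Neil3 (4.98) and the kinesin Kif14 (4.79), each resting on 2 to 4 counts with 1,10-Phen.

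The brakes of the cycle were split. Of 24 inhibitor and p53 target genes, 5 were higher (20.8%, against 9.54% of all genes) and 3 lower (12.5%, against 7.63%). The median was -0.09, and its sign turns with the scaling. Cdkn1a, the p21 inhibitor, was at 365 CPM with PF429424 and 949.8 CPM with 1,10-Phen, against 332 to 438 CPM (-1.38), and Cdkn1b, p27, differed by -1.53. Among other p53 targets, Plk3 (2.04), Btg2 (1.53) and Sesn1 (1.39) were higher, while Bax (-0.17), Ccng1 (-0.07) and Mdm2 (-0.94) were not called. Cdkn2c, p18, was higher (2.59). Clustered histone genes, most of them made in S phase without a poly(A) tail, passed the filter in 15 of 62 cases, several of them only through the 1,10-Phen library, so their counts in each direction are not read here. Hist1h1c, a linker histone, was at 6.94 CPM with PF429424 and 67.0 CPM with 1,10-Phen, against 6.43 to 9.28 CPM (-3.25). These genes are near-identical copies and their values are uncertain.

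**Figure D3:**
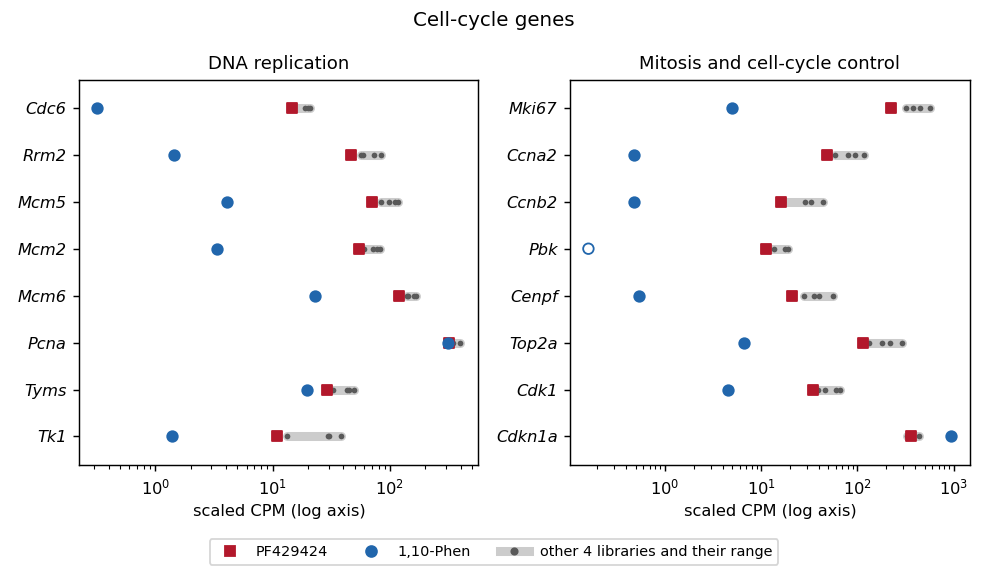
Scaled CPM (horizontal log axis) of DNA replication genes (left) and of mitotic and cell-cycle control genes (right) in the PF429424 library (squares), the 1,10-Phen library (large circles; open where below 3 counts and drawn at that floor) and the other 4 libraries (small points, joined by their range). Except for Pcna and Cdkn1a the circles lie to the left, Ccna2 at 0.482 CPM against 48.5 CPM for PF429424, and the squares stand at or below the low end of the range.

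The plot of 21 gene lists shows every measured member. The lists of HIF targets, glycolysis, oxidant defence, DNA replication and mitosis passed the filter whole. A gene can pass through 1 library alone, as the HIF targets Stc2 and Car12 did through the 1,10-Phen library.

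**Figure D4:**
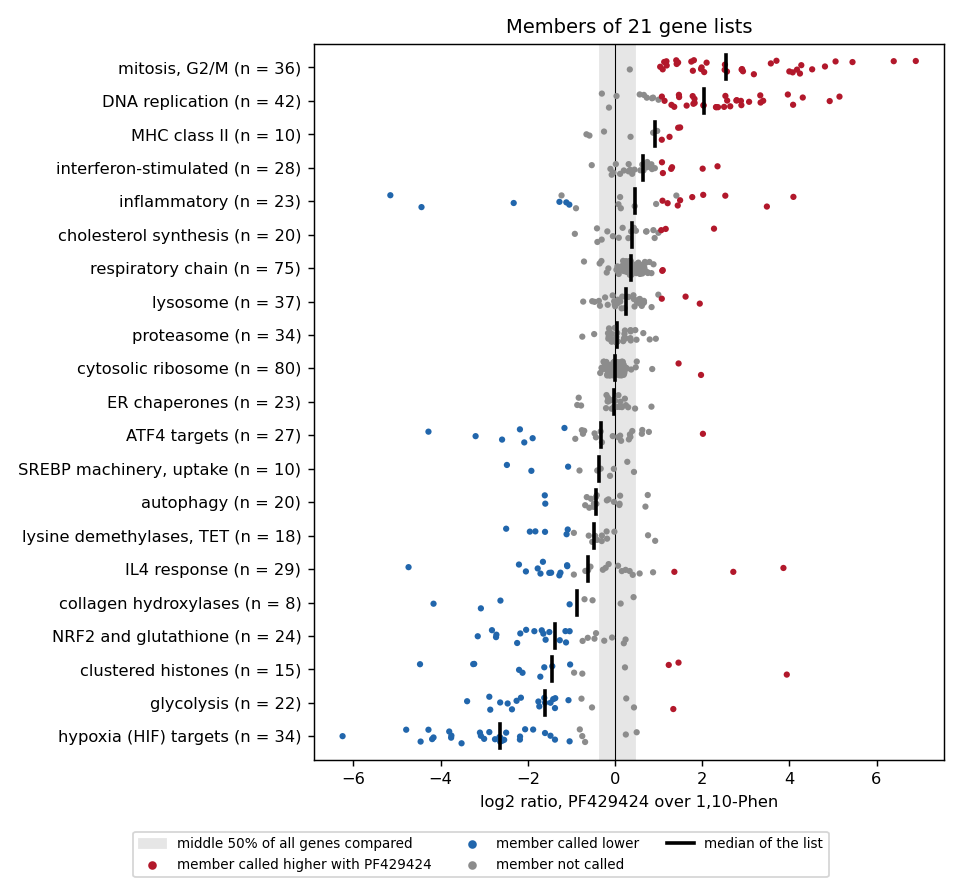
Log2 ratio of PF429424 over 1,10-Phen (horizontal axis) for each measured member of 21 gene lists, ordered by their median (black bar), with called members in colour and the middle 50% of all genes compared in grey. The mitosis (2.55) and DNA replication (2.03) medians stand at the right end and the HIF target (-2.63) and glycolysis (-1.61) medians at the left, with ER chaperones and the proteasome near 0.

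Of 27 measured targets of ATF4, the amino acid stress factor, 7 were lower with PF429424 (25.9%, against 7.63% of all genes). Another 1 was higher and 19 were not called (median -0.33). Among the lower genes, Vegfa and Stc2 also count as HIF targets above, and Stc2 passed the filter only through the 1,10-Phen library. PF429424 lay at least 2-fold above the other 4 libraries in 2 of the 27 and 1,10-Phen in 9, against 23 and 458 of all 11898 genes. Asns, asparagine synthetase, was at 202 CPM with PF429424 and 183 CPM with 1,10-Phen, against 21.7 CPM with IL4 alone, 25.1 with fatostatin, 45.02 with betulin and 116 with 25-HC; the difference of 0.14 has an interval of 0.07 to 0.21. Chac1, a glutathione-degrading enzyme, was at 14.6 CPM with PF429424 and 15.1 CPM with 1,10-Phen, against 0.512 to 6.60 CPM (-0.05, -0.29 to 0.19). For these 2 genes the 2 compound libraries sat together above the rest. Atf4 itself differed by -0.33 and Ddit3, the CHOP factor, by -0.44.

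Where ATF4 targets did differ, they did so in both directions. Slc7a11, the cystine importer, was at 65.7 CPM with PF429424 and 604 CPM with 1,10-Phen, against 30.96 to 54.6 CPM (-3.20). Trib3, a pseudokinase, was at 34.4 CPM with PF429424 and 128 CPM with 1,10-Phen, against 2.79 to 32.6 CPM (-1.89), and the glycine transporter Slc6a9 differed by -2.59. The higher gene was Psat1, the aminotransferase of serine synthesis. Psat1 was at 248 CPM with PF429424 and 61.2 CPM with 1,10-Phen, against 78.6 CPM with IL4 alone, 108 with fatostatin, 106 with betulin and 166 with 25-HC (2.02). PF429424 was thus above all 4 and 1,10-Phen below all 4. Phgdh, the first enzyme of serine synthesis, was at 118 CPM with PF429424 and 68.8 CPM with 1,10-Phen, both above the 21.9 to 41.5 CPM of the others (0.78, not called). Of 20 cytosolic tRNA synthetases, 1 was higher (Vars, 1.02), 5% against 9.54% of all genes, and none lower.

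ER chaperones did not separate the libraries: none of 23 was called, and the median was -0.02. Hspa5, the BiP chaperone, was at 756 CPM with PF429424 and 797 CPM with 1,10-Phen, against 1461 CPM with IL4 alone, 1573 with fatostatin, 1547 with betulin and 1511 with 25-HC. Both compound libraries were therefore below the rest, by less than 2-fold, at nearly the same level (-0.08, -0.11 to -0.04). Sdf2l1, Creld2 and Hsp90b1 were also below the rest in both libraries, at differences of 0.25, 0.11 and -0.02. For Sdf2l1 both libraries lay at least 2-fold below the other 4. The lowest ratios were those of the disulfide isomerase Pdia4 (-0.87) and of Calr, calreticulin, at 816 CPM with PF429424 and 1454 CPM with 1,10-Phen, against 1652 to 2424 CPM (-0.83). Dnajb9, by contrast, was at 88.1 CPM with PF429424 and 88.0 CPM with 1,10-Phen, above 41.0 to 66.3 CPM.

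Sterol genes, the subject named in the title, differed little. Of 20 genes of cholesterol synthesis, 3 were higher (15%, against 9.54% of all genes) and none lower with PF429424 (median 0.40). Those were Idi1, the isomerase (2.27), Fdps, farnesyl diphosphate synthase (1.16), and Acat2 (1.06), all present at under 20 CPM in both libraries, and with library totals as the scaling 5 were called higher. Sqle, squalene epoxidase, was at 13.7 CPM with PF429424 and 26.1 CPM with 1,10-Phen, against 12.2 to 16.04 CPM (-0.92). The 1,10-Phen level of Sqle thus stood above all others, though by less than 2-fold. Srebf2 (-0.41), Srebf1 (-0.81) and the proteases that cleave their products, Mbtps1 (-0.03) and Mbtps2 (-0.11), were not called.

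Cholesterol export held a gene for which PF429424 was the library apart. Abca1, the cholesterol exporter, was at 5.56 CPM with PF429424 and 53.9 CPM with 1,10-Phen, against 36.1 CPM with IL4 alone, 46.6 with fatostatin, 31.7 with betulin and 603 with 25-HC (-3.26, -3.57 to -3.00). Mylip, the ligase that degrades lipoprotein receptors, was also lowest with PF429424 but by less than 2-fold, at 6.20 CPM with PF429424 and 35.0 CPM with 1,10-Phen, against 10.6 to 48.1 CPM (-2.48). The partner exporter Abcg1 did not differ by 2-fold (-0.06), at 85.5 CPM with PF429424 and 88.9 CPM with 1,10-Phen, both below the 108 to 589 CPM of the others. Nr1h3, the receptor LXR alpha, was at 38.4 CPM with PF429424 and 8.14 CPM with 1,10-Phen, against 29.7 to 53.4 CPM (2.22). In fatty acid synthesis, 6 of 15 genes were higher (40%, against 9.54% of all genes) and 3 lower (20%, against 7.63%). The median was 0.50, or 0.37 with Fads2, which had no count with 1,10-Phen, set at its bound. Elovl6 (1.93), Fads1 (1.48) and Fasn (1.34) were higher. Scd2, a desaturase, was at 10.9 CPM with PF429424 and 134 CPM with 1,10-Phen, against 19.7 to 30.9 CPM in 3 of the others and 659 CPM with 25-HC (-3.60), and malic enzyme Me1 was lower too (-3.13).

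Alternative activation genes were lower with PF429424 in 12 of 29 cases (41.4%, against 7.63% of all genes). They were higher in 3 (10.3%, against 9.54%), and the median was -0.62. Arg1, arginase, was at 1984 CPM with PF429424 and 8180.3 CPM with 1,10-Phen, against 3573 CPM with IL4 alone, 5169.7 with fatostatin, 3297 with betulin and 2071 with 25-HC (-2.04, -2.06 to -2.03). PF429424 was the lowest and 1,10-Phen the highest of the 6. Chil3, a chitinase-like protein, had the highest level of the 6 with 1,10-Phen as well: 4557 CPM with PF429424 and 9733 CPM with 1,10-Phen, against 1653 to 5199.7 CPM (-1.09). Retnla, a resistin-like protein, was at 10.9 CPM with PF429424 and 23.5 CPM with 1,10-Phen, against 470.5 CPM with IL4 alone, 318 with fatostatin, 147 with betulin and 15.3 with 25-HC. The difference of -1.10 is thus between 2 low levels. F13a1, a coagulation factor subunit, was at 22.01 CPM with PF429424 and 589 CPM with 1,10-Phen, against 9.29 to 135 CPM (-4.74), and Mrc1, the mannose receptor, was not called (0.16).

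Signalling genes of the IL4 pathway were divided. Il4ra, the receptor chain, was at 70.6 CPM with PF429424 and 201 CPM with 1,10-Phen, against 88.4 to 94.0 CPM (-1.51), and the feedback inhibitor Socs1 differed by -1.65, while Stat6 differed by -0.28. The 3 higher genes were Ccl22, Irf4 and Egr2. Ccl22, a chemokine of alternatively activated cells, was at 43.4 CPM with PF429424 and 2.89 CPM with 1,10-Phen, against 33.9 to 60.3 CPM (3.86). Irf4, a transcription factor of the IL4 response, was at 56.1 CPM with PF429424 and 8.46 CPM with 1,10-Phen, against 39.3 to 85.0 CPM (2.71), and Egr2 differed by 1.36. Because no library lacks IL4, none of these values says how much of the IL4 response was kept.

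Inflammatory mediators went both ways, with 9 higher (39.1%, against 9.54% of all genes) and 6 lower (26.1%, against 7.63%) of 23 (median 0.45). Ccl3, a chemokine, was at 99.3 CPM with PF429424 and 5.73 CPM with 1,10-Phen, against 34.3 CPM with IL4 alone, 47.0 with fatostatin, 64.3 with betulin and 89.6 with 25-HC (4.09); Ccl4 differed by 3.48, but the 2 genes overlap in the annotation and the strand of the reads is not given, so their reads may mix. Tnf (2.53), Ccl6 (2.02) and Il1rn, the interleukin-1 antagonist (1.77), were higher as well. Ptgs2, the inducible cyclooxygenase, was at 5.91 CPM with PF429424 and 214 CPM with 1,10-Phen, against 2.84 CPM with IL4 alone, 2.68 with fatostatin, 5.20 with betulin and 8.70 with 25-HC (-5.15, -5.45 to -4.91). Nos2, the inducible nitric oxide synthase, rested on 1 count with PF429424 and 57 with 1,10-Phen (-4.44, -11.28 to -3.42). Of proteases and their inhibitors, 5 of 20 were higher (25%) and 4 lower (20%). Mmp19 (2.63) and Plau, urokinase (2.48), were higher, and the collagenase Mmp13 (-2.18) was lower.

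**Figure D5:**
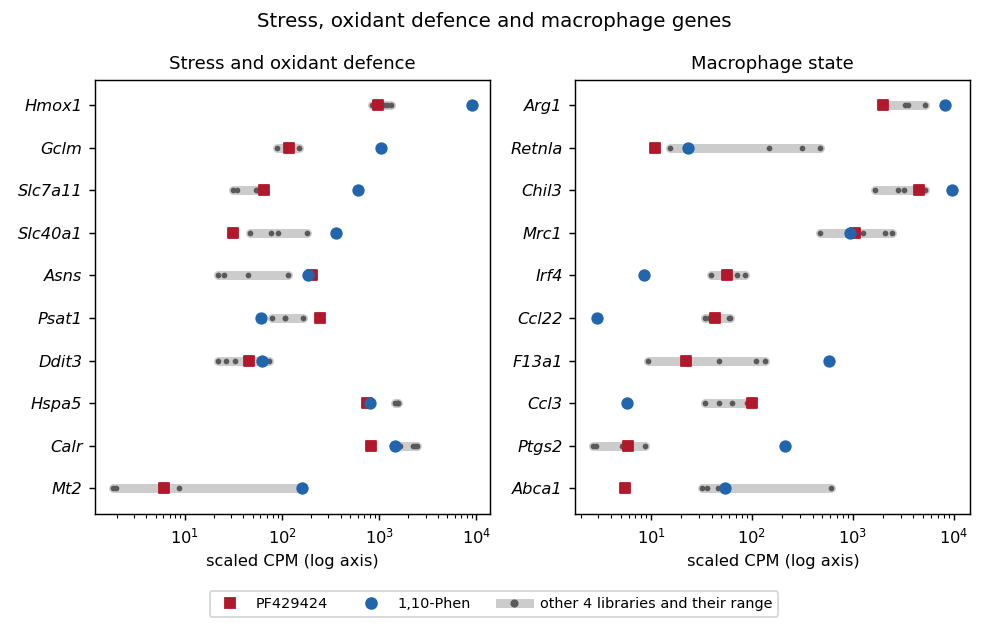
Scaled CPM (horizontal log axis) of stress, metal and oxidant defence genes (left) and of macrophage genes (right) in the PF429424 library (squares), the 1,10-Phen library (large circles) and the other 4 libraries (small points, joined by their range). Squares and circles coincide for Asns (202 and 183 CPM) and Hspa5 (756 and 797 CPM), outside the range of the others, and lie apart for Hmox1 (961 and 8995 CPM), Ccl22 (43.4 and 2.89 CPM) and Abca1 (5.56 and 53.9 CPM).

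Antigen presentation and interferon genes were mostly above 0. Of 10 measured MHC class II genes, 4 were higher (40%, against 9.54% of all genes) and none lower (median 0.92). The higher genes included the transactivator Ciita (1.45) and Rfx5 (1.49), whereas Cd74, the invariant chain, differed by -0.59. Among 28 interferon-stimulated genes, 6 were higher (21.4%, against 9.54%) and none lower (median 0.64), with Ifit3 at 2.35 and Ifi44 at 2.01. Of 15 MHC class I genes, 3 were higher (20%, against 9.54% of all genes) and 1 lower (6.67%, against 7.63%) (median 0.26). The higher ones were the immunoproteasome subunits Psmb8, Psmb9 and Psmb10, at 1.05, 1.13 and 1.11, while the class I heavy chains H2-K1 (0.07) and H2-D1 (-0.03) did not differ by 2-fold.

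Of 13 measured genes of lipid-associated macrophages, 5 were higher (38.5%, against 9.54% of all genes) and 1 lower. Gpnmb, a lysosome-associated glycoprotein of lipid-laden macrophages, was at 22632 CPM with PF429424 and 5948 CPM with 1,10-Phen, against 8718 CPM with IL4 alone, 11100.0 with fatostatin, 12943 with betulin and 10975 with 25-HC (1.93, 1.92 to 1.94). The 2 libraries flanked the other 4, and Gpnmb made up 2.19% of all counts with PF429424. The fatty acid binding proteins Fabp4 (3.20) and Fabp5 (2.01) and the lipase Lpl (1.02) were higher, Hilpda, a droplet protein and HIF target, lower (-1.43). Of 37 lysosomal genes 3 were higher, Cd63 (1.94), Atp6v0d2 (1.62) and Gusb (1.07), and none lower, at a median of 0.26; that is 8.11% higher, against 9.54% of all genes. Autophagy genes had 2 of 20 lower (10%, against 7.63% of all genes), the receptor Sqstm1 (-1.60) and Map1lc3a (-1.61).

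Genes for which PF429424 was the library apart were few: 29 of the 2043 called, or 47 where the 25-HC library was left out of the range and 62 at a margin of 1.5-fold. Among the 14 higher genes, Rbp4, retinol binding protein, was at 19.0 CPM with PF429424 and 1.77 CPM with 1,10-Phen, against 0.931 to 3.29 CPM (3.36). Mfge8, a bridging protein for the uptake of dying cells, was at 173 CPM with PF429424 and 38.8 CPM with 1,10-Phen, against 58.9 to 80.8 CPM (2.15). Ptgir, the prostacyclin receptor, was at 128 CPM with PF429424 and 40.7 CPM with 1,10-Phen, against 41.3 to 49.0 CPM (1.65), and the branched-chain aminotransferase Bcat1 differed by 2.22. Among the 15 lower genes besides Abca1, Cx3cr1, the fractalkine receptor, was at 0.738 CPM with PF429424 and 4.28 CPM with 1,10-Phen, against 2.25 to 9.08 CPM (-2.39), and the pyrin gene Mefv at 1.77 CPM and 10.1 CPM, against 7.503 to 15.3 CPM (-2.44). Except for Rbp4 and Abca1, these examples were chosen after their values were seen.

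Rarer still among called genes were those with both libraries outside the other 4. A call needs a 2-fold difference within the pair, so genes with both libraries apart at a like level, such as Chac1, are left out. Over all 11898 genes, both lay outside in the same direction in 32, against 44 for PF429424 alone. The counts below are of called genes. In opposite directions there were 4, among them Nr1d1, the clock repressor REV-ERB alpha, at 1.33 CPM with PF429424 and 11.998 CPM with 1,10-Phen, against 3.20 to 4.41 CPM (-3.08), and Cdcp1 (-3.63). Of 14 measured clock genes 3 were lower (21.4%, against 7.63% of all genes) and none higher. The related Nr1d2 (-1.40) and the clock output factor Dbp (-2.05) were lower too, while the core clock genes Arntl (-0.25) and Clock (-0.17) were not called. In the same direction there were 10 called genes, among them Egln3 above and the neutrophil granule genes Camp, Ngp and S100a8 below the others.

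Several of the 12 highest and 12 lowest ratios belonged to no list. Bex1 was at 88.9 CPM with PF429424 and 1.82 CPM with 1,10-Phen, against 7.36 CPM with IL4 alone, 53.2 with fatostatin, 22.9 with betulin and 6.97 with 25-HC (5.54), so that it varied among all 6. Zfp966 had 214 counts with PF429424 and none with 1,10-Phen, but also none with betulin, and it lies among similar zinc finger genes, so its value is uncertain. On the lower side stood Notch4, a Notch receptor, at 0.935 CPM with PF429424 and 45.7 CPM with 1,10-Phen, against 0.706 to 2.46 CPM (-5.47). Dnmt3l, a regulator of DNA methyltransferases, was at 0.0985 CPM with PF429424 (2 counts) and 8.78 CPM with 1,10-Phen (-5.51, -9.54 to -4.60). The others were Mgarp, a mitochondrial protein (-5.26), Rnf183, a ubiquitin ligase (-5.27), Gpat3, an acyltransferase of triglyceride synthesis (-4.90), Esam, an adhesion molecule (-4.89), and Skint3 (-5.05), each at under 1 CPM with PF429424. Like Dnmt3l, these passed the filter only through the 1,10-Phen library, the one where they were high. Their place among the lowest ratios thus rests in part on the filter.

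Macrophage markers were present in both libraries. The 14 macrophage markers summed to 13770 CPM with PF429424 and 10100 CPM with 1,10-Phen, against 9773 to 14550 CPM. Of these, 2 were higher (14.3%, against 9.54% of all genes) and 1 lower (7.14%, against 7.63%). Csf1r, the M-CSF receptor, differed by -0.23. Neutrophil markers summed to 86.4 CPM with PF429424 and 81.7 CPM with 1,10-Phen, both below the 299 to 381 CPM of the others. Of 12 measured, 5 were higher (41.7%, against 9.54% of all genes) and 1 lower (8.33%, against 7.63%), and the median was 0.80. The 9 stromal markers summed to 54.9 CPM with PF429424 and 140 CPM with 1,10-Phen, against 46.4 to 122 CPM. Of the 5 measured, 4 were lower (80%, against 7.63% of all genes), with Col1a1 at -1.59, while Col3a1, Dcn, Lum and Thy1 did not pass the filter. Of the dendritic list 2 of 4 were higher (50%, against 9.54% of all genes), Itgax (1.99) and Zbtb46 (1.57), and Flt3 and Clec9a did not pass. Of 9 lymphoid markers 2 passed and none was called. No mast cell, basophil, eosinophil or red cell marker passed the filter. The part of these marker differences in the results above was not tested. Housekeeping groups were close. Of 80 cytosolic ribosomal proteins 2 were higher (2.5%, against 9.54% of all genes), Rpl22l1 (1.97) and Rpl3 (1.46), and none lower. No member of the proteasome list of 34 was called.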

How the data were processed

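RNA of 6 macrophage cultures, 1 per treatment, was sequenced from 1 ug each. Per the file headers, each deposited file gives an expected count and an FPKM value for each gene; RSEM 1.2.12, HISAT2, Bowtie2 and DESeq2 are listed, without roles, per the submitters' processing notes. The genome build, annotation and strand setting are not given in the sources used here. From 30.5% to 32% of the deposited estimated counts of a library were not whole, and they were rounded. No column was left unmatched (0).

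TMM factors from all 6 libraries (edgeR 4.0.16, R 4.3.3) scaled the counts. Genes had to reach a CPM of 1, computed on library totals, in any library. The log2 ratio used a prior count of 2, and intervals were Clopper-Pearson (SciPy 1.17.1, Python 3.11.15). For a library without a count, the floor was 3 counts in that library, or 0.148 CPM with PF429424 and 0.161 CPM with 1,10-Phen. A library counted as apart where it lay at least 2-fold outside the range of the 4 libraries other than this pair. The procedure was tested on simulated data. DESeq2 1.42.0 gave alternative size factors.

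Genes were named by rule: the 12 highest and 12 lowest ratios whose intervals excluded no change, among genes with regular symbols and no fewer than 50 counts and 5 CPM in either library; in each list, the 4 ratios largest in size among members at 5 CPM; and a set of defining genes. Others were added after their values were seen, and a few genes are not reported here. The 45 lists and the members of the comparison were chosen with earlier results of these data known. Of the gene IDs, 16651 (99.3%) were found in RefSeq (GRCm38.p6), which gave the promoters; matches were sought in the 250 bases before each start. The E2F and NRF2 motifs and the sequences shown were chosen after seeing the data. The deposited FPKM values served only as an alternative, as log2(FPKM + 1).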

Additional observations from a re-analysis of the deposited data

How the results depend on the processing

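With 1 library per treatment, nothing here separates treatment from culture or library. No paired analysis was possible because each treatment has 1 library, and neither library of the pair can be left out. Calls were recomputed with DESeq2 size factors, TMM over the 2 libraries, library totals, no filter, a filter at 5 CPM, prior counts of 0.5 and 10, and log2(FPKM + 1). None changed the sign of a called gene among the 196 named; between 0 and 14 calls were lost and between 0 and 11 gained. Genes higher numbered 930 to 1318 over the settings on counts and genes lower 608 to 1094; with log2(FPKM + 1) 795 were higher and 408 lower, the cause of which was not tested. Library totals raised the median of all genes by 0.10, called 5 cholesterol synthesis genes higher in place of 3, and turned 5 of 42 list medians positive, those of ER chaperones (0.08), scavenger receptors and C1q (0.08), cycle brakes (0.01), cytosolic ribosome (0.10) and matrix proteases (0.07). With no filter, which adds genes near 0 counts, the median of the dendritic markers was -0.23 in place of 1.25. The next alternatives were chosen after seeing the data. Called genes with PF429424 alone outside the others numbered 29, and 31 to 47 when 1 of the other 4 libraries was left out (47 without the 25-HC library); at a 1.5-fold margin they numbered 62. The called genes with the 1,10-Phen library alone outside the others numbered 1035, and 1058 to 1187 and 1497 under these alternatives. Genes with a few counts in either library have wide intervals.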

Other observations

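Immediate early genes were divided between the pair. With PF429424, 3 of 13 measured were higher (23.1%, against 9.54% of all genes) and 4 lower (30.8%, against 7.63%), at a median of 0.04. Fos (1.56) and Egr1 (1.56), fast-responding transcription factors, were higher, whereas their relatives Fosl1 (-2.33) and Fosl2 (-1.10) and the phosphatase Dusp1 (-1.36) were lower. Of 14 measured heat shock genes, 1 was higher (7.14%), the mitochondrial chaperonin partner Hspe1 (1.15). Lower were 3 (21.4%), Hspb1 (-1.44), Hspa1a (-1.56) and Hspa1b (-1.08), the last 2 being near-identical copies. Hspb1 rested on 6 counts with PF429424 and 18 with 1,10-Phen (-3.33 to -0.31). Hsp90aa1 lay at 0.00.

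Some receptors for the uptake of dying cells and for chemoattractants were called, in both directions. Axl (1.87) and Mertk (1.73), kinases that recognise dying cells, were higher with PF429424, but both libraries lay below the other 4. Axl was at 79.7 CPM with PF429424 and 21.7 CPM with 1,10-Phen, against 92.4 to 184 CPM. For Mertk the levels were 39.7 CPM and 11.9 CPM, against 40.7 to 105 CPM. C1qa, C1qb and C1qc, the complement subunits, stood at 0.83, 0.98 and 0.96, under the 2-fold limit. The lectins Clec4n (-2.87) and Clec4e (-1.95) were lower. In all, 2 of 16 measured scavenger, lectin and complement genes were higher (12.5%, against 9.54% of all genes) and 3 lower (18.8%, against 7.63%). Their median was -0.02. Of 19 receptors for chemoattractants, purines and adenosine, 2 were higher (10.5%, near the share of all genes), among them Adora2b (1.74). Lower were 4 (21.1%), among them the formyl peptide receptor Fpr1 (-1.80), and the median was -0.21.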
